A study of Mus musculus with 9 samples.

Results

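The enzymes that write, copy and remove DNA methylation were followed through the differentiation of mouse embryonic stem (ES) cells. Members were every probe set annotated to 1 of 10 genes, the DNA methyltransferase genes Dnmt1, Dnmt3a, Dnmt3b and Dnmt3l, their partner Uhrf1, the dioxygenase genes Tet1, Tet2 and Tet3, the glycosylase gene Tdg, and Mbd3. This gave 21 of the 45101 probe sets on the array, for 9 of the 10 genes. Tdg had 0 probe sets of its own. RNA was measured on 9 Affymetrix mouse arrays, 3 for each of 3 groups, all made from the mouse ES line Ainv15 with a doxycycline-inducible Cdx2-V5 construct. The Cdx2 and FGF cultures were day 5 embryoid bodies patterned from day 2 with retinoic acid (1 µM) and an agonist of hedgehog signalling (0.5 µM), to which doxycycline (2 µg/ml on day 3, lasting 6 to 8 hours) and bFGF (100 ng/ml) had been added. The motor neuron cultures were day 5 embryoid bodies with the same patterning and neither addition. The ES cells were taken at day 0, untreated, from a layer of mitomycin-treated fibroblasts. The parts of doxycycline, of Cdx2 and of FGF cannot be told apart, since no culture received 1 of them alone. A single line was used, and the labels do not say which cultures also received the lower retinoic acid and hedgehog agonist concentrations that the growth protocol mentions. Day 5 groups are embryoid bodies and not purified motor neurons.

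DNA methylation is a methyl group on cytosine, in mammals mostly where a guanine follows (CpG). Dnmt3a and Dnmt3b place it on unmethylated DNA, with Dnmt3l as a cofactor that has no catalytic activity of its own. Dnmt1, guided by Uhrf1, copies it onto the new strand after replication. Tet enzymes oxidise the methyl group, and Tdg cuts out the more oxidised forms so that base excision repair can restore cytosine. Mouse ES cells are known for high levels of Dnmt3b, Dnmt3l and Tet1.

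The arrays mostly matched their labels in pluripotency genes, motor neuron genes and Cdx2, and less well in pan-neuronal and caudal Hox genes on the ES arrays. Of 12 pluripotency genes, 10 lay under 4 on the log2 scale on all arrays of both day 5 groups, including Pou5f1 and Nanog at the floor of 2.17, and 12 of 12 exceeded 4 on all ES arrays. Of 11 motor neuron and ventral progenitor genes with a probe set, 8 exceeded 4 on all Cdx2 and FGF arrays, 9 on all motor neuron arrays and 3 on all ES arrays. Their summed level was 76.2 to 78.2 in Cdx2 and FGF cultures, 99.9 to 105.8 in motor neuron cultures and 40.7 to 41.7 in ES cells. The day 5 groups thus differed more in level than in these counts. Chat, the enzyme that makes acetylcholine, lay under 4 in the 3 groups. Cdx2 averaged 8.62 in Cdx2 and FGF cultures, 2.19 in motor neuron cultures and 2.17 in ES cells. Of 12 pan-neuronal genes, 9 exceeded 4 on all ES arrays, while Dcx, Nefm and Syt1 lay under 4 there. The summed level of the 12 was 83.2 to 93.8 in ES cells and 100.9 to 106.7 in Cdx2 and FGF cultures. Stmn2 averaged 13.07 and Ina 11.63 in ES cells, above Cdx2 and FGF cultures (9.77 and 9.56). Hoxc8 (7.37) and Hoxd9 (6.61) exceeded 4 on all ES arrays, while Hoxa9, Hoxb9 and Hoxc9 lay under 4. The ES arrays stood apart in several technical controls. The 3′ minus 5′ difference of the Tfrc control probe sets was -1.74 to -1.43 for Cdx2 and FGF cultures and -1.57 to -1.39 for motor neuron cultures, against 5.59 to 6.86 for ES cells. That of Actb was -0.1 to -0.01 for Cdx2 and FGF cultures and -0.05 to -0.03 for motor neuron cultures, against 1.87 to 2.3 for ES cells. That of Gapdh overlapped between ES cells and motor neuron cultures, at 0.51 to 0.54 for Cdx2 and FGF cultures, 0.59 to 0.65 for motor neuron cultures and 0.63 to 1.05 for ES cells. The 18S rRNA control (3′ end) had a level of 15.32 to 15.42 for Cdx2 and FGF cultures and 15.45 to 15.51 for motor neuron cultures, against 5.86 to 6.6 for ES cells. The summed level of 14 fibroblast genes was 72.3 to 74.6 in Cdx2 and FGF cultures and 39.9 to 40.1 in motor neuron cultures, against 62.2, 101.7 and 98.4 in ES cells. Of the 14, 7 exceeded 4 on all Cdx2 and FGF arrays, 2 on all motor neuron arrays and 4 on all ES arrays, while Lum lay under 4 in the 3 groups. Each comparison with ES cells below stands beside these differences, whose part in it was not tested. RNA of whole cultures was measured, so fewer cells expressing a gene and less RNA per cell cannot be told apart. Nothing in the labels says that the 3 arrays of a group came from separate cultures, and p-values therefore cover array-to-array spread that may be technical.

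Values are the deposited log2 expression levels, and a difference is the log2 level of the group named first less that of the group named after it. A probe set was tested if it exceeded 4 on at least 3 of the 9 arrays, which held for 21 of 21 member probe sets and for 21523 in all. A call of higher or lower needs an adjusted p under 0.05 (limma, Benjamini-Hochberg over the 21523) and a log2 difference of at least 1. The fit pooled the spread of all groups, so a probe set has the same SE in each comparison. Levels of different probe sets are not read as amounts relative to each other, and a gap between probe sets of 1 gene is only compared between arrays.

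The loci differ in how many CpG dinucleotides surround their start. RefSeq start windows on GRCm38.p6, 250 bases before to 50 bases after each annotated start, were at hand for all 10 genes, with 17 windows in all. Among the 32851 windows of the genome the median CpG count was 7. The window with the most CpG is printed for the genes with the largest differences from ES cells in the results that follow, Dnmt3l, Dnmt3b, Tet1, Tet2 and Tet3, and for the pair that copies methylation, Dnmt1 and Uhrf1. Capitals mark each CpG, and each sequence is read 5′ to 3′ in the direction of the gene. They are Dnmt3l chr10:78042037-78042336 (plus strand), Dnmt3b chr2:153649199-153649498 (plus strand), Tet1 chr10:62887275-62887574 (minus strand), Tet2 chr3:133544341-133544640 (minus strand), Tet3 chr6:83441629-83441928 (minus strand), Dnmt1 chr9:20952574-20952873 (minus strand) and Uhrf1 chr17:56304063-56304362 (plus strand).
Dnmt3l: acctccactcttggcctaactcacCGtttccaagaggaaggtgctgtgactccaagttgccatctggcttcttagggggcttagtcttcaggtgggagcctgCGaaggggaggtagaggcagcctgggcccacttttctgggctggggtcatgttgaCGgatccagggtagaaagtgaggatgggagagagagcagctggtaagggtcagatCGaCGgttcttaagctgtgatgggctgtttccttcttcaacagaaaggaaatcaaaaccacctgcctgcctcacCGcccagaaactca
Dnmt3b: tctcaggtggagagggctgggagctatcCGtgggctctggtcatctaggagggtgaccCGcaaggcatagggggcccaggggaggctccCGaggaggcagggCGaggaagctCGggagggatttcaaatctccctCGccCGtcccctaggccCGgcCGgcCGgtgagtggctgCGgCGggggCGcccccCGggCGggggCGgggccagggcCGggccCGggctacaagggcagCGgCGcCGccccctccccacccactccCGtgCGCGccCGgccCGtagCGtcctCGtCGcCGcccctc
Tet1: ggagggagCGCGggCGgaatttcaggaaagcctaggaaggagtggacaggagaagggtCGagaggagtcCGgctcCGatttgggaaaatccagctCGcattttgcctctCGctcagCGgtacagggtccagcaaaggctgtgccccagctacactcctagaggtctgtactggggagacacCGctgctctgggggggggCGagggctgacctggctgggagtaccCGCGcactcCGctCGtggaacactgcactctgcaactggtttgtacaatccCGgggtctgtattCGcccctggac
Tet2: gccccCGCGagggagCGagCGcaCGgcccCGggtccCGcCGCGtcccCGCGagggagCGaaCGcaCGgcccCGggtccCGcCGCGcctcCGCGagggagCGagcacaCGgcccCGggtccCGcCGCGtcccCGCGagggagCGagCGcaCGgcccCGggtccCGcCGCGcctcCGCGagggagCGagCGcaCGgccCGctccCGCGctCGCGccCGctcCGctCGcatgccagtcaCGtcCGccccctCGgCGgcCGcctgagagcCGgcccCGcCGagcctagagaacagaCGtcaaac
Tet3: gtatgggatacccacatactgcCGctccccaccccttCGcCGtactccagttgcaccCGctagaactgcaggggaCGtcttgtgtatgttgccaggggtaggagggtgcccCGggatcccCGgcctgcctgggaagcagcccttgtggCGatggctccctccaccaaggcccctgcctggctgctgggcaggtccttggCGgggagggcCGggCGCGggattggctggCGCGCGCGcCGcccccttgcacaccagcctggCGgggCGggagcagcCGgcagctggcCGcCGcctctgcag
Dnmt1: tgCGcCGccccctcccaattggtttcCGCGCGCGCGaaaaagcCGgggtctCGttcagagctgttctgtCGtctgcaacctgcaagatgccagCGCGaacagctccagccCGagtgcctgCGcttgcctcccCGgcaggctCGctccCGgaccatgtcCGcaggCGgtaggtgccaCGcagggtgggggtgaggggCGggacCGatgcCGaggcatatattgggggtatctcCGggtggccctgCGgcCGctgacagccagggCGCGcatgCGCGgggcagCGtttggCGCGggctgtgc
Uhrf1: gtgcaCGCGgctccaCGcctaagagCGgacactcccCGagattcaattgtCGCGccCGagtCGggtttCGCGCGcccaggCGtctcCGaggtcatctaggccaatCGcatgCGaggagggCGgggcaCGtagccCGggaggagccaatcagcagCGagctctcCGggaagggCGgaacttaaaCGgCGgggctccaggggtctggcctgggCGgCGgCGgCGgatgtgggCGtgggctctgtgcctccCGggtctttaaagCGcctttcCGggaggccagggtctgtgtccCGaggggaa
The Dnmt3l window held 6 CpG, below the genome median, and its other 2 windows held 4 and 3. The Dnmt3b window held 30, that of Tet1 17 and that of Tet3 22. Those printed for Dnmt1 and Uhrf1 held 33 each. The Tet2 window, with 57, had the most CpG among the 17, while Dnmt3a had 46, 47 and 18 in its 3 windows, Tdg 26 and Mbd3 22. A search on both strands for the E2F-type words TTTCCCGC, TTTCGCGC, TTTGCCGC and TTTGGCGC, which are found near replication genes, matched 2.265% of all windows. Among the member windows these words were found in the printed Dnmt1 window (first bases at -219 and 34 relative to the start) and the printed Uhrf1 window (-185). The octamer ATGCAAAT, the word read by POU factors such as Pou5f1, was in 1.735% of all windows and in 0 of the 17. These matches describe letters only and say nothing of binding.

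Motor neuron cultures differed from ES cells by 5 days of differentiation and also in the technical controls and fibroblast genes given above. In motor neuron cultures against ES cells, 3 of the 21 member probe sets were called higher (31.9% of all tested) and 14 lower (27.9%). The median difference of the members was -1.97, against 0.1 over all tested probe sets. Against ES cells, Cdx2 and FGF cultures gave 5 members higher (31.4% of all tested) and 13 lower (24.7%), with a median of -1.59 against 0.14. Cdx2 and FGF cultures against motor neuron cultures gave 2 members higher (10.9%) and 0 lower (8.57%), with a median of 0.48 against 0.04. At an unadjusted p under 0.05 in the limma fit, 9 members were higher and 1 lower there. The share of all tested probe sets at that threshold was not computed, so this count has no background. Each group serves in a pair of these comparisons, so they share arrays. Dnmt3l and 1 Tet2 probe set lay under 4 in both day 5 groups, so they were tested only through the ES arrays and could only come out lower than in ES cells. Groups did not overlap for 3 members higher (39.7% of all tested probe sets) and 14 lower (35.5%) in motor neuron cultures against ES cells, and in Cdx2 and FGF cultures against ES cells for 5 higher (41.3%) and 14 lower (32.9%).

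**Figure D1:**
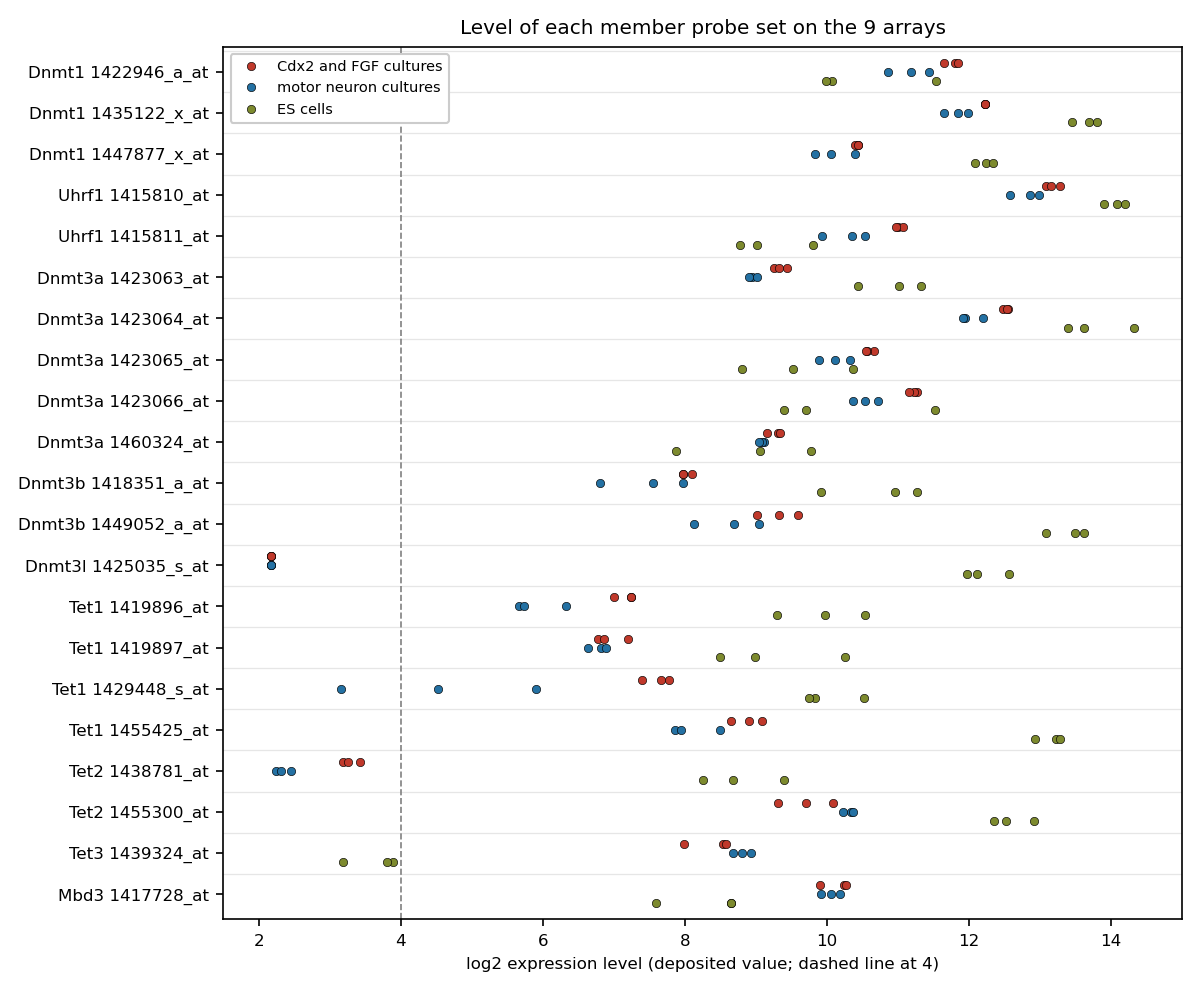
Log2 expression level of the 21 member probe sets (rows, by gene) on each of the 9 arrays; points are single arrays of Cdx2 and FGF cultures, motor neuron cultures and ES cells, and the dashed line at 4 is the filter value. Dnmt3l sits at 2.17 in both day 5 groups and near 12 in ES cells, and Tet3 is the other way round, with ES arrays under 4.

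Maintenance of methylation is described first. Dnmt1 had 3 probe sets, and they disagreed about ES cells. Probe set 1435122_x_at read 12.22 on each of the 3 Cdx2 and FGF arrays, 11.65, 11.85 and 11.99 on the motor neuron arrays, against 13.80, 13.45 and 13.69 on the ES arrays. Identical readings over 4 on all arrays of a group were found for 371 probe sets in Cdx2 and FGF cultures, 312 in motor neuron cultures and 71 in ES cells. All ES readings of this probe set were above both day 5 groups, and Dnmt1 by this measure fell 3.52-fold in motor neuron cultures (log2 difference -1.82, SE 0.12, adjusted p = 7.939e-07) and 2.68-fold in Cdx2 and FGF cultures (-1.42, adjusted p = 4.756e-06).

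The second Dnmt1 probe set, 1447877_x_at, fell likewise against ES cells (log2 difference -1.80 in Cdx2 and FGF cultures, -2.13 in motor neuron cultures). The third, 1422946_a_at, read 11.65, 11.80 and 11.85 in Cdx2 and FGF cultures, 10.86, 11.19 and 11.44 in motor neuron cultures, against 10.07, 9.99 and 11.54 in ES cells. Here ES replicate 3 stood above the motor neuron arrays and the other ES arrays below them. The difference of motor neuron cultures from ES cells was 0.63 (95% interval -0.21 to 1.47, adjusted p = 0.1498), and 1.13 with a call without ES replicate 3 (adjusted p = 0.0003945). Cdx2 and FGF cultures were called higher than ES cells (1.24, adjusted p = 0.01378), a call that ended without ES replicate 1 (adjusted p = 0.05261), without ES replicate 2 (0.05173) and with no filter (0.06482). The probe sets that fell, 1435122_x_at and 1447877_x_at, have no source sequence named in the annotation used, while 1422946_a_at does. Whether they also read other sequences was not tested. Averaged over its 3 probe sets, Dnmt1 fell in motor neuron cultures by 1.11 (adjusted p = 0.0006093) and differed by -0.66 without a call in Cdx2 and FGF cultures (adjusted p = 0.01112).

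Uhrf1, which recognises hemimethylated DNA behind the replication fork and recruits Dnmt1, had probe sets with opposite calls. Probe set 1415810_at read 13.09, 13.16 and 13.28 in Cdx2 and FGF cultures, 12.58, 12.86 and 12.98 in motor neuron cultures, against 14.20, 14.09 and 13.90 in ES cells. The 3 groups did not overlap. It fell 2.39-fold in motor neuron cultures against ES cells (log2 difference -1.26, SE 0.12, adjusted p = 9.827e-06), while in Cdx2 and FGF cultures the difference of -0.89 was under the fold threshold (adjusted p = 0.0001154), which it passed with median centring (-1.10).

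Probe set 1415811_at of the same gene read 11.00, 11.08 and 10.97 in Cdx2 and FGF cultures, 9.93, 10.35 and 10.54 in motor neuron cultures, against 9.01, 8.77 and 9.80 in ES cells. Its order of groups was the reverse of the first at the ES end, with ES cells lowest. It was called higher than in ES cells both in Cdx2 and FGF cultures (1.82, SE 0.27, adjusted p = 0.000215) and in motor neuron cultures (1.08, SE 0.27, adjusted p = 0.004924). The call for motor neuron cultures ended without ES replicate 1 (0.99), without ES replicate 2 (0.87), without motor neuron replicate 3 (0.94) and with median centring (0.97). The mean of both probe sets differed from ES cells by 0.47 in Cdx2 and FGF cultures (adjusted p = 0.02197) and by -0.09 in motor neuron cultures (adjusted p = 0.6091), without a call.

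The gap between probe sets of 1 gene was therefore examined array by array, for pairs chosen after their values were seen and so given as a description with no test. The first minus the second Uhrf1 probe set gave 2.09, 2.08 and 2.31 on Cdx2 and FGF arrays, 2.65, 2.51 and 2.44 on motor neuron arrays, against 5.19, 5.32 and 4.1 on ES arrays. The gap was wider on every ES array than on any day 5 array. For Dnmt1, 1435122_x_at minus 1422946_a_at gave 0.57, 0.42 and 0.38 on Cdx2 and FGF arrays, 0.79, 0.67 and 0.55 on motor neuron arrays, against 3.73, 3.46 and 2.14 on ES arrays. For Dnmt3a, 1423064_at minus 1423065_at gave 1.88, 1.93 and 1.99 on Cdx2 and FGF arrays, 2.06, 1.87 and 1.8 on motor neuron arrays, against 3.96, 4.59 and 4.1 on ES arrays. For Tet1, 1455425_at minus 1419897_at gave 1.89, 1.87 and 2.04 on Cdx2 and FGF arrays, 1.04, 1.86 and 1.06 on motor neuron arrays, against 4.24, 3.03 and 4.43 on ES arrays. The Tet2 pair went the other way. For it, 1455300_at minus 1438781_at gave 6.66, 6.13 and 6.45 on Cdx2 and FGF arrays, 7.78, 8.09 and 8.05 on motor neuron arrays, against 3.68, 3.13 and 4.66 on ES arrays, and 1438781_at was under 4 on all day 5 arrays. Where a probe set lies on its transcript was not analysed here, and the part of RNA amplification in these gaps was not tested.

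**Figure D2:**
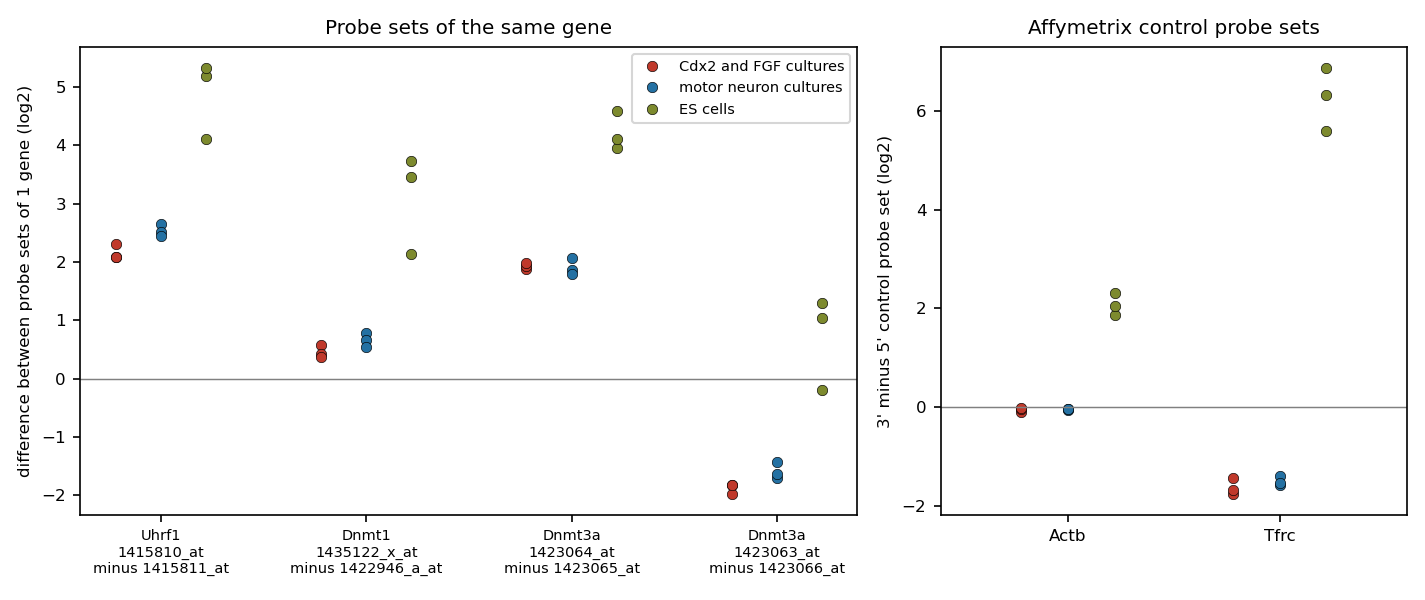
Left, log2 difference between a pair of probe sets of the same gene on each array; right, 3′ minus 5′ log2 difference of the Actb and Tfrc control probe sets; points are single arrays of Cdx2 and FGF cultures, motor neuron cultures and ES cells. The Uhrf1 gap is 2.08 to 2.65 on the day 5 arrays and 4.1 to 5.32 on ES arrays. The Tfrc control is below 0 on the day 5 arrays and 5.59 to 6.86 on ES arrays. Only pairs of Uhrf1, Dnmt1 and Dnmt3a are drawn. The Tet1 pair, the Tet2 pair that went the other way and the Gapdh control that overlapped are not.

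Among the de novo enzymes, Dnmt3l fell furthest. Its probe set 1425035_s_at read 2.17, the floor of the table, on all 3 Cdx2 and FGF arrays and all 3 motor neuron arrays, against 12.56, 11.97 and 12.11 on the ES arrays. All 6 day 5 arrays were thus at the floor, and no ES array was. With values under 4 raised to 4, it was at least 297-fold lower in motor neuron cultures (log2 difference as deposited -10.05, SE 0.22, adjusted p = 2.281e-09) and at least 297-fold lower in Cdx2 and FGF cultures (adjusted p = 2.622e-09). A difference between the day 5 groups could not be measured at the floor.

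Dnmt3b, the main de novo enzyme of the early embryo, fell without reaching the floor. Probe set 1449052_a_at read 9.02, 9.32 and 9.59 in Cdx2 and FGF cultures, 8.12, 8.69 and 9.05 in motor neuron cultures, against 13.62, 13.08 and 13.49 in ES cells. ES arrays lay over 3 log2 units above every day 5 array, and the day 5 groups overlapped. It was 17.0-fold lower than in ES cells in Cdx2 and FGF cultures (-4.09, SE 0.26, adjusted p = 8.247e-07) and 27.4-fold lower in motor neuron cultures (-4.78, SE 0.26, adjusted p = 2.486e-07). Its other probe set, 1418351_a_at, gave falls of 6.50-fold in Cdx2 and FGF cultures and 9.66-fold in motor neuron cultures (adjusted p = 0.0001895 and 4.709e-05). Relative to motor neuron cultures, Cdx2 and FGF cultures differed by 0.69 (95% interval 0.10 to 1.28, adjusted p = 0.07885) and 0.57 (-0.31 to 1.45, adjusted p = 0.3268) for the same probe sets, without a call.

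Dnmt3a, the de novo enzyme that persists in somatic and neural cells, was present in all groups and its 5 probe sets did not give 1 direction. Probe set 1423064_at read 12.55, 12.49 and 12.54 in Cdx2 and FGF cultures, 11.95, 12.20 and 11.92 in motor neuron cultures, against 14.32, 13.40 and 13.62 in ES cells. It fell 3.38-fold in motor neuron cultures against ES cells (-1.76, SE 0.21, adjusted p = 4.184e-05) and 2.39-fold in Cdx2 and FGF cultures (-1.26, adjusted p = 0.0004332), the last under the fold threshold without ES replicate 1 (-0.99). Probe set 1423063_at fell in the same way (-1.59 in Cdx2 and FGF cultures, -1.97 in motor neuron cultures).

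The other 3 Dnmt3a probe sets differed from ES cells by 0.18 to 0.55 in motor neuron cultures without a call, and the groups overlapped. On 1423065_at Cdx2 and FGF cultures read 10.67, 10.56 and 10.55, motor neuron cultures 9.89, 10.33 and 10.12, and ES cells 10.36, 8.81 and 9.52. Cdx2 and FGF cultures were called higher than ES cells there (1.03, adjusted p = 0.02007). That call ended without ES replicate 2 (0.65), without Cdx2 and FGF replicate 1 (0.99), and under 5 other settings that include no filter (adjusted p = 0.07658). On 1423066_at Cdx2 and FGF cultures differed from ES cells by 1.01 without a call (adjusted p = 0.07535), and 1.66 with a call without ES replicate 1. The mean of the 5 probe sets differed from ES cells by -0.09 in Cdx2 and FGF cultures (adjusted p = 0.8025) and by -0.53 in motor neuron cultures (adjusted p = 0.1285).

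The Tet enzymes changed in opposite directions. Tet1, the main dioxygenase of ES cells, had 4 probe sets, all 4 called lower than in ES cells in both day 5 groups. Probe set 1455425_at read 9.08, 8.65 and 8.90 in Cdx2 and FGF cultures, 7.86, 8.49 and 7.95 in motor neuron cultures, against 13.23, 13.28 and 12.93 in ES cells. The groups did not overlap, and ES arrays were far above both others. It fell 19.3-fold in Cdx2 and FGF cultures (-4.27, SE 0.21, adjusted p = 1.552e-07) and 33.1-fold in motor neuron cultures (-5.05, SE 0.21, adjusted p = 4.598e-08). Over the 4 probe sets the differences from ES cells were -4.27 to -2.30 in Cdx2 and FGF cultures and -5.51 to -2.47 in motor neuron cultures, the -5.51 with 1 motor neuron array under 4. The call of 1429448_s_at for Cdx2 and FGF cultures (-2.43) ended with array weights (adjusted p = 0.06134).

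Tet1 also gave both member calls between the day 5 groups. Probe set 1429448_s_at read 7.66, 7.40 and 7.77 in Cdx2 and FGF cultures, 3.16, 5.91 and 4.52 in motor neuron cultures, against 9.83, 10.52 and 9.75 in ES cells. The Cdx2 and FGF arrays were close to each other and above every motor neuron array, while the motor neuron arrays were spread over more than 2 log2 units with 1 under 4. It was at least 6.97-fold higher in Cdx2 and FGF cultures than in motor neuron cultures (as deposited 3.08, SE 0.59, adjusted p = 0.004039). Without motor neuron replicate 1 the difference was 2.39 (adjusted p = 0.006764) and without motor neuron replicate 2 it was 3.77 (adjusted p = 0.0006789).

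Probe set 1419896_at read 7.24, 7.00 and 7.24 in Cdx2 and FGF cultures, 5.67, 6.32 and 5.73 in motor neuron cultures, against 9.97, 10.53 and 9.30 in ES cells. It was 2.39-fold higher in Cdx2 and FGF cultures than in motor neuron cultures (1.25, SE 0.33, adjusted p = 0.01949). The adjusted p was above the threshold without motor neuron replicate 1 (0.07614) or 3 (0.06582), without Cdx2 and FGF replicate 1 (0.06879) or 3 (0.06712), and with no filter (0.05954). Probe set 1455425_at differed by 0.78 (95% interval 0.30 to 1.25, adjusted p = 0.02145), under the fold threshold. Probe set 1419897_at differed by 0.16 (-0.75 to 1.08, adjusted p = 0.8379). The mean of the 4 Tet1 probe sets was higher in Cdx2 and FGF cultures by 1.32 (adjusted p = 0.01129). Other cell types also differed between these cultures. The summed level of 11 mesoderm and muscle genes was 87.2 to 88.7 in Cdx2 and FGF cultures and 32.4 to 41.2 in motor neuron cultures, with 7 and 1 of the 11 over 4 on all arrays, while Tbx6, Mesp1 and Msgn1 lay under 4 in both. That of 12 pan-neuronal genes was 100.9 to 106.7 in Cdx2 and FGF cultures and 146.4 to 155.3 in motor neuron cultures. The part of these cell types, and of the fibroblast genes given above, in the Tet1 difference was not tested. Tet1 ranked ES cells highest, Cdx2 and FGF cultures next and motor neuron cultures lowest on 3 of 4 probe sets, with the day 5 groups overlapping on 1419897_at.

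Tet2, which like the other Tet enzymes oxidises methylcytosine but lacks their CXXC DNA-binding domain, fell in both day 5 groups. Probe set 1455300_at read 10.08, 9.32 and 9.70 in Cdx2 and FGF cultures, 10.23, 10.34 and 10.36 in motor neuron cultures, against 12.35, 12.52 and 12.91 in ES cells. ES arrays lay above all others. The fall was 7.45-fold in Cdx2 and FGF cultures (-2.90, SE 0.21, adjusted p = 2.05e-06) and 4.88-fold in motor neuron cultures (-2.29, SE 0.21, adjusted p = 8.57e-06). The difference of -0.61 from motor neuron cultures in Cdx2 and FGF cultures had no call (95% interval -1.09 to -0.13, adjusted p = 0.05894).

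The second Tet2 probe set, 1438781_at, read 3.42, 3.18 and 3.25 in Cdx2 and FGF cultures, 2.46, 2.24 and 2.31 in motor neuron cultures, against 8.67, 9.40 and 8.26 in ES cells. It exceeded 4 only in ES cells and was at least 27.4-fold lower in either day 5 group (adjusted p = 2.54e-07 for Cdx2 and FGF cultures, 7.669e-08 for motor neuron cultures). Its readings in the day 5 groups lay under 4, and their difference of 0.95 became 0 once values under 4 were raised to 4.

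Tet3, the Tet enzyme of the oocyte and of neurons, was the member with the largest rise. Its probe set 1439324_at read 7.99, 8.53 and 8.58 in Cdx2 and FGF cultures, 8.68, 8.93 and 8.80 in motor neuron cultures, against 3.88, 3.81 and 3.18 in ES cells. All ES arrays lay under 4 and all day 5 arrays near 8 or above, so that the probe set was tested through the day 5 arrays and could only come out higher. It was at least 20.6-fold higher than in ES cells in Cdx2 and FGF cultures (4.74, SE 0.27, adjusted p = 4.271e-07) and at least 27.9-fold higher in motor neuron cultures (5.18, SE 0.27, adjusted p = 2.005e-07). The Cdx2 and FGF arrays were all below the motor neuron arrays, but the difference of -0.44 had no call (95% interval -1.05 to 0.18, adjusted p = 0.2826).

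Tdg could not be read by itself. Its 3 probe sets name Tdg together with the pseudogenes Tdg-ps and Tdg-ps2, and their joint values are given with the closing observations.

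Mbd3 belongs to the same protein family as the methyl-CpG readers but in mammals is mainly a subunit of NuRD, a complex that removes histone acetylation and moves nucleosomes. Probe set 1417728_at read 10.24, 10.27 and 9.90 in Cdx2 and FGF cultures, 9.91, 10.18 and 10.05 in motor neuron cultures, against 8.65, 7.60 and 8.65 in ES cells. The day 5 groups overlapped, and both were above the ES arrays. Mbd3 rose 3.57-fold in Cdx2 and FGF cultures (1.84, SE 0.28, adjusted p = 0.0003045) and 3.36-fold in motor neuron cultures (1.75, SE 0.28, adjusted p = 0.0003814). Cdx2 and FGF cultures differed from motor neuron cultures by 0.09 (95% interval -0.56 to 0.73).

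**Figure D3:**
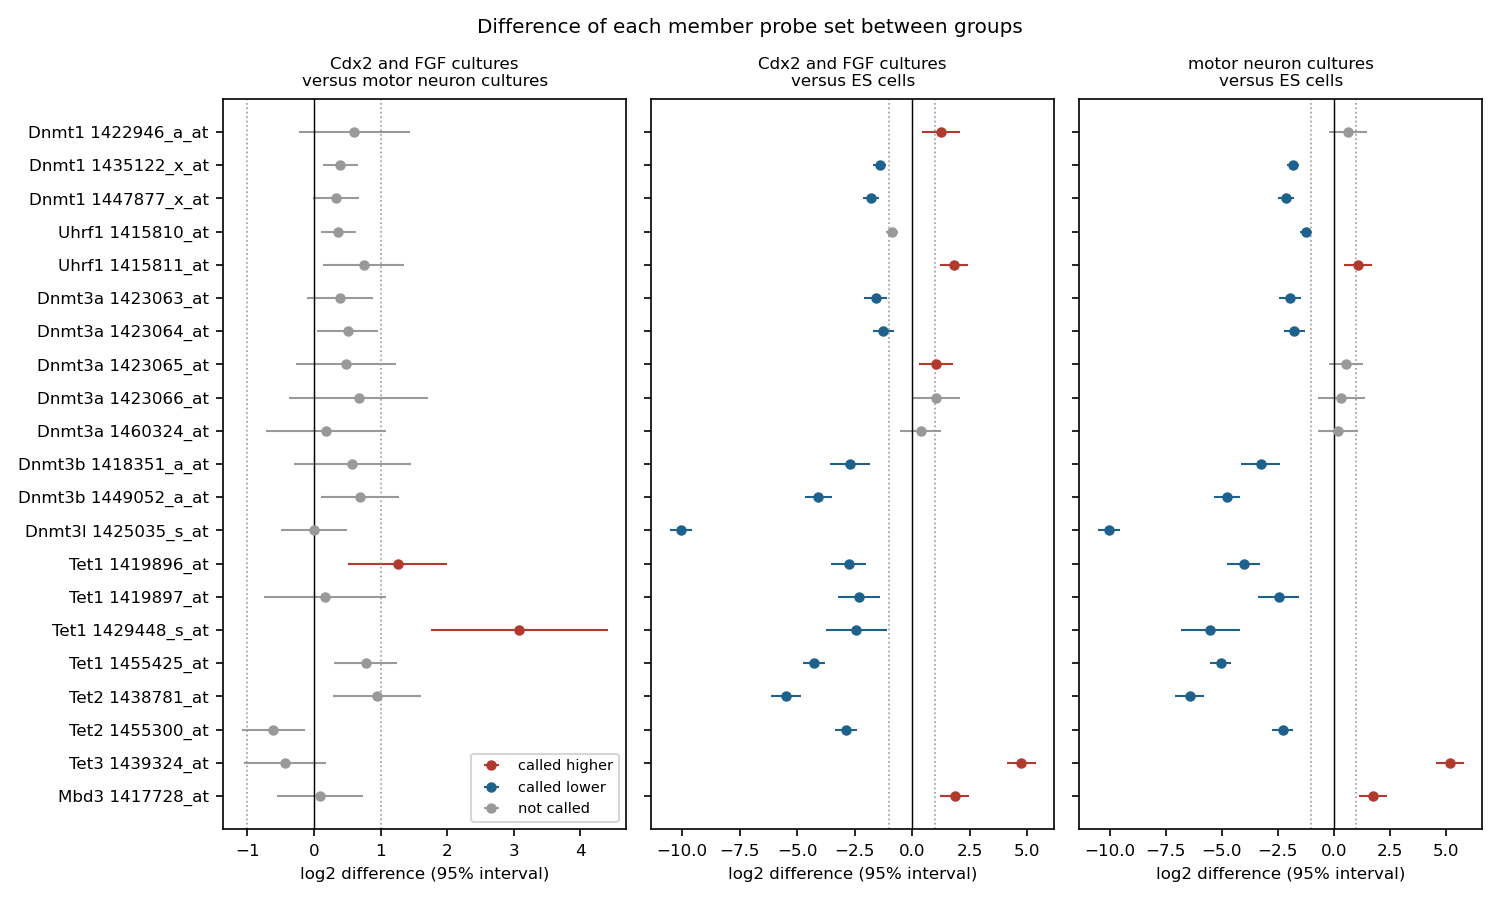
Log2 difference of each of the 21 member probe sets with its 95% interval from limma, in 3 panels for Cdx2 and FGF cultures versus motor neuron cultures, Cdx2 and FGF cultures versus ES cells, and motor neuron cultures versus ES cells; dotted lines mark a difference of 1 in either direction, and colours mark calls. Only 2 Tet1 probe sets are called in the first panel, while 18 and 17 of 21 are called in the comparisons with ES cells.

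Between the day 5 groups most member differences were small and of 1 sign. Cdx2 and FGF cultures were higher than motor neuron cultures on 18 of 21 member probe sets and lower on 2 (53.9% of all tested probe sets were higher), and for Dnmt3l the difference was 0. The groups did not overlap for 13 higher members (34.2% of all tested probe sets) and 2 lower ones (26.7%). An adjusted p under 0.05 was reached by 6 members, and 4 of these stayed under the fold threshold. The share of all tested probe sets with such a p at any fold was not computed. The 18, the 13 and the 6 each include 1438781_at of Tet2, which lay under 4 on all 6 day 5 arrays and whose difference was 0 with values under 4 raised to 4. Several of the 18 probe sets belong to the same gene, so they are not independent. Median centring of the arrays moved all differences of this comparison by -0.103, those of motor neuron cultures against ES cells by -0.11, and those of Cdx2 and FGF cultures against ES cells by -0.213. It left 2 calls of members between the day 5 groups, and gave Mbd3 a difference of -0.02 there.

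The pathway around these enzymes was followed in 9 gene lists, with 1 probe set for each gene, the one with the highest mean. Other probe sets of the list genes were not examined, although those of Dnmt1, Uhrf1 and Dnmt3a disagreed about ES cells. Of the 10911 genes tested in this way, 25.9% were called higher and 30.7% lower in motor neuron cultures against ES cells. In Cdx2 and FGF cultures, 25.4% were called higher and 27.2% lower against ES cells, and 11.1% and 8.55% against motor neuron cultures. Counts at an unadjusted p are given for some lists without a share over all genes, which was not computed. Such counts have no background and are not read as a direction of a list.

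Among readers of methylated CpG, 0 of 8 tested genes rose and 5 fell in Cdx2 and FGF cultures against ES cells, and 0 rose and 3 fell in motor neuron cultures, with medians of -1.16 and -1.04 against 0 and -0.08 over all genes. Mbd4, a glycosylase that removes mismatched thymine, averaged 9.10 in Cdx2 and FGF cultures, 9.13 in motor neuron cultures and 10.97 in ES cells, and fell in both day 5 groups (-1.87 and -1.84). Mbd6, a gene with a methyl-CpG-binding domain, also fell (-1.88 in Cdx2 and FGF cultures, -1.83 in motor neuron cultures). None of the 8 was called between the day 5 groups, where 2 were higher and 2 lower at an unadjusted p under 0.05 in limma.

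NuRD subunits, the partners of Mbd3, were mostly without a call. Of 12 tested genes, 4 rose and 0 fell in Cdx2 and FGF cultures against ES cells, and 4 rose and 1 fell in motor neuron cultures, with medians of 0.11 and -0.18. At an unadjusted p under 0.05 in limma, 5 were higher and 5 lower against ES cells in Cdx2 and FGF cultures, and 4 higher and 6 lower in motor neuron cultures. Chd3, a NuRD nucleosome remodeller, averaged 7.24 in Cdx2 and FGF cultures, 9.41 in motor neuron cultures and 3.76 in ES cells. With 2 of the 3 ES arrays under 4, it was at least 9.10-fold higher than in ES cells in Cdx2 and FGF cultures (log2 difference as deposited 3.48, adjusted p = 6.49e-06) and at least 40.9-fold higher in motor neuron cultures (5.65, adjusted p = 2.248e-07). The related remodeller Chd4, the scaffold subunit Mta2 and the deacetylase Hdac2 also rose in both day 5 groups, by 1.99 to 2.43 in Cdx2 and FGF cultures and by 2.15 to 2.89 in motor neuron cultures. Against motor neuron cultures, Chd3 was lower in Cdx2 and FGF cultures (-2.17, SE 0.30, adjusted p = 0.000673) and the subunit gene Mta3 higher (1.42, SE 0.16, adjusted p = 0.0001593), which were the only calls among the 12.

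Partners of maintenance methylation were split. Of 11 tested genes, 2 rose and 2 fell in each day 5 group against ES cells. Hells, a remodeller needed for normal DNA methylation, averaged 9.81 in Cdx2 and FGF cultures, 9.13 in motor neuron cultures and 12.79 in ES cells, and fell in both day 5 groups (-2.97 and -3.66, adjusted p = 1.613e-05 and 3.45e-06). Usp7, a deubiquitinase that binds Dnmt1 and Uhrf1, fell too (-1.24 in Cdx2 and FGF cultures, -1.37 in motor neuron cultures), while Hdac2 and the H3K9 methyltransferase gene Ehmt2 rose. The call of Ehmt2 in motor neuron cultures (1.31) ended without ES replicate 2 (0.92). None of the 11 was called between the day 5 groups. At an unadjusted p under 0.05 in limma 4 were higher and 0 lower, counts without a background.

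In the list of demethylation and base excision repair genes, 2 of 16 rose and 7 fell in Cdx2 and FGF cultures against ES cells, and 2 rose and 9 fell in motor neuron cultures, with medians of -0.62 and -1.24. For 2 of the 7 and 3 of the 9 falls all arrays of that day 5 group lay under 4, so these genes could only come out lower than in ES cells. Apobec3, a cytidine deaminase known mainly for restricting retroviruses, averaged 7.73 in Cdx2 and FGF cultures, 2.21 in motor neuron cultures and 12.52 in ES cells. All 3 motor neuron arrays lay under 4, and it was at least 13.3-fold higher in Cdx2 and FGF cultures than in motor neuron cultures (log2 difference as deposited 5.52, SE 0.25, adjusted p = 6.01e-07). Gadd45b, a stress-induced gene linked to active demethylation, averaged 8.99 in Cdx2 and FGF cultures and 6.62 in motor neuron cultures, a rise of 2.37 (SE 0.44, adjusted p = 0.003478). The uracil glycosylase gene Smug1 was the 1 gene called lower there (-1.07), a call that ended without motor neuron replicate 1 (-0.88) and under array weights (difference -0.996).

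Among TET partners and factors that protect methylation, 1 of 8 rose and 2 fell in Cdx2 and FGF cultures against ES cells, and 1 rose and 4 fell in motor neuron cultures. Dppa3, which shields methylation in the early embryo, read 2.17 in both day 5 groups and 10.89 in ES cells, and was tested only through the ES arrays. Cxxc4, a CXXC protein that binds Tet2, averaged 8.99 in Cdx2 and FGF cultures, 10.08 in motor neuron cultures and 5.05 in ES cells, with 1 ES array under 4. It was at least 14.7-fold higher than in ES cells in Cdx2 and FGF cultures and at least 31.2-fold higher in motor neuron cultures (log2 differences as deposited 3.95 and 5.03, adjusted p = 6.809e-05 and 1.153e-05, or 3.32 and 4.41 without ES replicate 2). Zfp57, which keeps methylation at imprinted loci, fell in both (-3.17 and -2.97). None of the 8 was called between the day 5 groups. There 3 were higher and 0 lower at an unadjusted p under 0.05 in limma, again without a background.

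Most tested germline genes of the kind that promoter methylation is known to silence fell in the day 5 cultures against ES cells. Of 17 listed genes with a probe set, 11 were tested, and 9 fell and 2 rose against ES cells in each day 5 group. For 8 of the 9 all day 5 arrays lay under 4, so these were tested only through the ES arrays and could only come out lower, and 1 of the 2 rises had all ES arrays under 4. Ddx4, a germ cell RNA helicase, read 2.17 in both day 5 groups and 10.76 in ES cells, and Mael, a piRNA pathway gene, 2.18 in both and 10.98. Tdrkh, another piRNA pathway gene, averaged 10.54 in Cdx2 and FGF cultures, 10.87 in motor neuron cultures and 5.66 in ES cells and was called higher. Between the day 5 groups 0 of 11 were called, with 0 higher and 1 lower at an unadjusted p under 0.05 in limma. DNA methylation itself was not measured on these arrays.

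The methyl donor cycle supplies the methyl group. Of 13 tested genes, 1 rose and 5 fell in Cdx2 and FGF cultures against ES cells, and 0 rose and 4 fell in motor neuron cultures. Mthfd1, an enzyme of folate metabolism, averaged 11.87 in Cdx2 and FGF cultures, 10.59 in motor neuron cultures and 14.10 in ES cells, and was called in all 3 comparisons (-2.23 and -3.51 against ES cells, and 1.27 between the day 5 groups with adjusted p = 0.0005695). Mtr, the methionine synthase gene, was higher in Cdx2 and FGF cultures than in motor neuron cultures by 1.23 (adjusted p = 0.006537). Mtrr, which reactivates that enzyme, differed by 1.04 (adjusted p = 0.02622). That call ended without motor neuron replicate 1 (0.72) and without each of the other day 5 arrays but motor neuron replicate 3. It also ended with quantile normalization repeated (0.88), median centring (0.94), array weights (0.95) and no filter (adjusted p = 0.07621). Idh1, an enzyme that makes the 2-oxoglutarate used by Tet enzymes, was lower (-1.09), though not called without Cdx2 and FGF replicate 2 (-0.99).

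Genes of H3K9 methylation gave 2 rises and 2 falls among 9 tested in each day 5 group against ES cells, and 0 calls between the day 5 groups, where 1 was higher and 1 lower at an unadjusted p under 0.05 in limma. Suv39h2, an H3K9 methyltransferase gene, rose by 1.62 in Cdx2 and FGF cultures and by 1.78 in motor neuron cultures, and Atf7ip, a partner of Setdb1, fell (-1.13 and -1.85). Dnmt1 and Uhrf1 act with replication, and the S phase list gave 3 rises and 5 falls among 19 genes in Cdx2 and FGF cultures, and 3 rises and 9 falls in motor neuron cultures. The DNA polymerase gene Pola1 fell in both (-2.07 and -2.34), while the replication gene Gins2 rose by 2.67 and 1.82. None of the 19 was called between the day 5 groups. The 5 higher and 0 lower at an unadjusted p under 0.05 in limma have no background either.

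**Figure D4:**
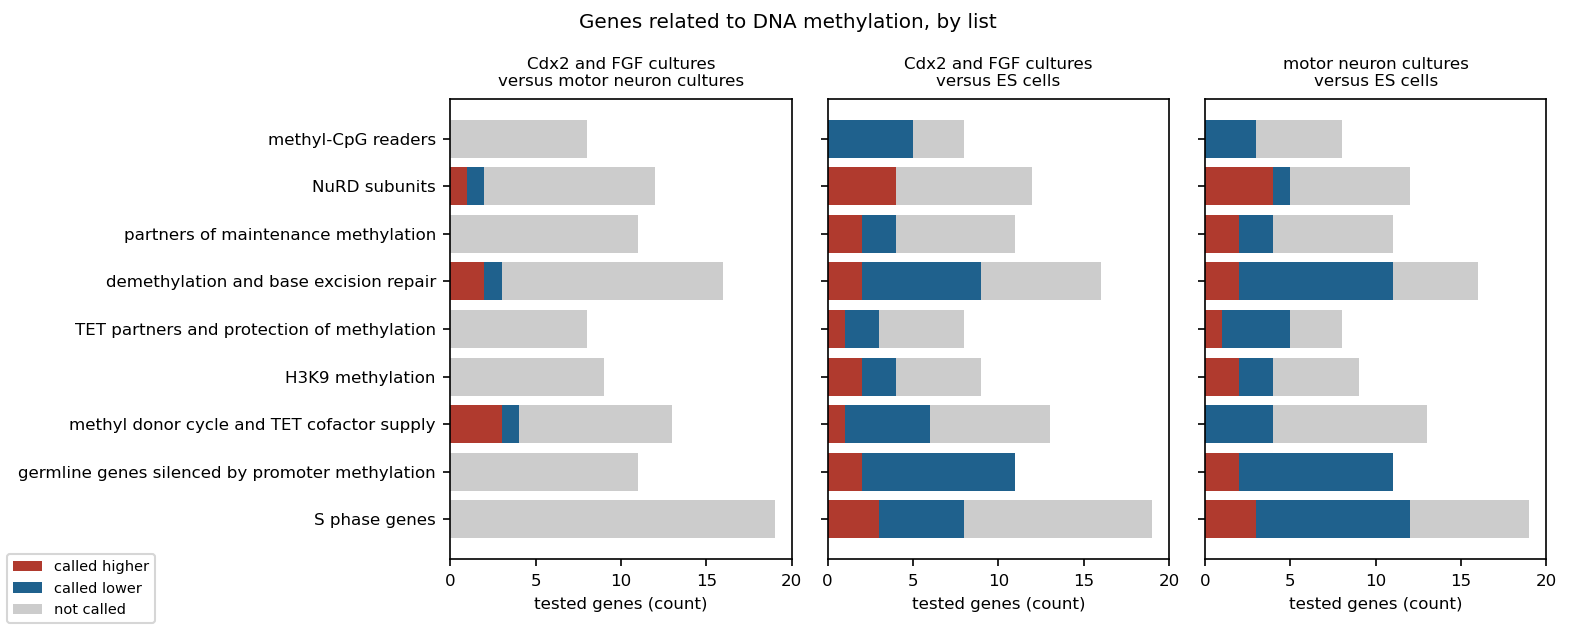
Number of tested genes called higher, called lower and not called in each of the 9 lists (rows), in 3 panels for Cdx2 and FGF cultures versus motor neuron cultures, Cdx2 and FGF cultures versus ES cells, and motor neuron cultures versus ES cells. The germline list has 9 genes lower and 2 higher against ES cells in both day 5 groups and 0 calls between them.

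The genes with the most similar pattern were found among 10547 genes by the root mean square difference over the 9 arrays, after each profile was centred on its own mean. These are descriptions, since the arrays share their 3 groups. For Dnmt3l the nearest were Eras, an ES cell Ras gene (0.087), and the splicing regulator gene Esrp1 (0.168), both at 2.17 in the day 5 groups and near 12 in ES cells. Dnmt3b was nearest to the zinc finger gene Zbtb11 (0.241) and to Mybl2, a cell cycle transcription factor gene (0.251). For Tet1 these were Adcy3, an adenylate cyclase gene (0.212), Hook1 (0.224) and Diaph2 (0.225), and for Tet3 they were Zfp775 (0.198), Pacs2 (0.249) and Tdrkh (0.257), the germline list member above. Each member entered only with its probe set of highest mean. Uhrf1 by 1415810_at was nearest to Lpcat1 (0.09), Dnmt1 by 1435122_x_at to Yes1 (0.072) and Mbd3 to Trappc12 (0.103). Probe sets 1415811_at of Uhrf1 and 1422946_a_at of Dnmt1, whose means were lowest in ES cells, were not compared in this way.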

How the data were processed

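The labels' protocols name a NuGEN Ovation kit for amplifying and labelling the RNA, which was measured on Affymetrix mouse arrays. The submitters' processing notes name GCRMA and limma and give no version. The authors deposited log2 expression values per probe set, normalized between arrays, from 2.165 to 16.12. That these are log2 values was inferred from their range. For arrays, the number of arrays limits precision. The genome build used for the probe sets is not given in the sources used here.

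Of 45101 probe sets, 34958 named 1 gene, 932 several and 9211 none. All 9 arrays entered a limma 3.58.1 fit of group means in R 4.3.3 (lmFit, then eBayes with an intensity trend, 6 residual degrees of freedom), after a filter (over 4 on at least 3 arrays, control probe sets left out), with Benjamini-Hochberg adjustment. Where any array of the dimmer group lay under 4, a fold is a lower bound with such values raised to 4. The fit was tested on simulated data. Named genes were all members, up to 4 genes per list by the size of their difference, called ones first, and the 3 genes nearest each member. The members and lists were chosen with earlier results of these data known. The labels state no pairing, and same-numbered arrays correlated in their deviations by -0.028 to 0.106, so replicate numbers were not taken to pair them. Each motor neuron array had the same-numbered ES array as its best match, at correlations of 0.008 to 0.024. In the other comparisons this held for only some arrays. Alternatives were other normalizations, filters and fits, and leaving out each array.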

Additional observations from a re-analysis of the deposited data

How the results depend on the processing

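With 3 arrays per group, the median within-group SD was 0.121 in Cdx2 and FGF cultures, 0.156 in motor neuron cultures and 0.402 in ES cells. The fit pooled the spread of all groups, so a probe set had the same SE in each comparison. The wider ES spread thus also entered the intervals between the day 5 groups. The narrower day 5 spread likewise entered the comparisons with ES cells, whose intervals can thus be too narrow. With only the 6 arrays compared in the limma fit, 1423065_at of Dnmt3a lost its call in Cdx2 and FGF cultures against ES cells (adjusted p = 0.05428). It was the only member call to change in that fit. For 1423066_at of Dnmt3a the SDs were 0.06, 0.18 and 1.15 in that order of groups, and the SE was 0.46 throughout. With no filter, 1 member was higher in Cdx2 and FGF cultures than in motor neuron cultures, and 3 were higher than in ES cells. Shares over all probe sets are given above for the main fit only. With 1 probe set per gene, for 9 genes, 7 fell in motor neuron cultures against ES cells (30.7% of all genes in the main fit). In Cdx2 and FGF cultures 0 rose against motor neuron cultures (11.1%), and 2 rose (25.4%) and 6 fell (27.2%) against ES cells. The probe sets kept for Dnmt1, Uhrf1 and Dnmt3a, those with the highest mean, were highest in ES cells. Of their other probe sets, 1447877_x_at of Dnmt1 and 1423063_at of Dnmt3a were too, and the rest were not. Averaging a gene's probe sets gave 5 genes lower in motor neuron cultures against ES cells, 1 higher in Cdx2 and FGF cultures against motor neuron cultures, and against ES cells 2 higher and 4 lower. Leaving out each array in turn gave 2 to 4 members higher and 14 lower for motor neuron cultures against ES cells, 1 to 2 higher and 0 lower between the day 5 groups, and 3 to 5 higher and 12 to 13 lower for Cdx2 and FGF cultures against ES cells. The fit with a replicate block kept the counts at 3 and 14, 2 and 0, and 5 and 13.

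A few small differences without a call changed sign, and the cause was not tested. Between the day 5 groups these were 1419897_at of Tet1 (-0.0028 with quantile normalization repeated), Mbd3 (-0.0159) and Dnmt3l (-0.1034) with median centring, which shifts every difference by a constant, and 1438781_at of Tet2, at 0 with values under 4 raised to 4. Against ES cells, 1460324_at of Dnmt3a was at -0.0534 in motor neuron cultures with array weights. Over the fits that leave out an array it ran from -0.3353 to 0.6124 in motor neuron cultures and from -0.1511 to 0.7967 in Cdx2 and FGF cultures, and 1423066_at of Dnmt3a from -0.0705 to 0.9926 in motor neuron cultures. The negative ends of these ranges came without ES replicate 3.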

Other observations

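Tdg, the glycosylase that excises the products of Tet oxidation, shares its probe sets with Tdg-ps and Tdg-ps2, so the following levels belong to the 3 loci jointly. Probe set 1416790_a_at averaged 13.31 ± 0.07 in Cdx2 and FGF cultures, 13.53 ± 0.06 in motor neuron cultures and 13.77 ± 0.21 in ES cells (log2, SD, n = 3 each). Probe set 1435715_x_at averaged 12.88 ± 0.06 in Cdx2 and FGF cultures, 13.09 ± 0.06 in motor neuron cultures and 13.35 ± 0.26 in ES cells. Probe set 1448462_at averaged 12.50 ± 0.03 in Cdx2 and FGF cultures, 12.67 ± 0.13 in motor neuron cultures and 11.77 ± 0.23 in ES cells. The first pair was thus highest in ES cells and the last lowest there, all within a range of about 1 log2 unit.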
